A study of Mus musculus with 4 samples.

Results

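The insulin-like growth factor (IGF) family was followed through 10 genes in the mouse mammary epithelial line EpH4, which were picked by name from the 25413 genes of the count table: the ligands Igf1 and Igf2, the receptors Igf1r and Igf2r, and the binding proteins Igfbp2 to Igfbp7. All 10 had a row in the table. RNA was sequenced from wild-type (WT) cells in 2D culture, in 2 groups of 2 libraries: PM2.5-treated cells, exposed to the fine particles of polluted air, and untreated Control cells. Dose, exposure time and separate cultures are not given in the labels, so p-values reflect only how far these libraries differ, which may be technical. All 4 libraries carry the same batch label, and the lowest total was 18548478 counts and the highest 26206329.

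IGF1 and IGF2 are secreted growth factors that signal through the receptor tyrosine kinase encoded by Igf1r, and onward through PI3K, AKT and mTOR to cell growth and survival. The receptor encoded by Igf2r takes up IGF2 for breakdown in the lysosome and also carries mannose 6-phosphate-tagged enzymes. The binding proteins hold the ligands outside the cell until proteases cut them, and in the mammary gland the pathway is known for ductal growth, with binding proteins prominent at involution.

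The labelled cell type was not borne out by its markers. Of 15 epithelial marker genes, 0 reached a mean of 1 CPM (a count scaled to the size of its library, here with TMM factors), and Epcam, Krt18, Krt19, Cldn4 and Esrp1 had 0 counts in all 4 libraries. The summed level of these 15 genes was 1.79 to 2.95 CPM in PM2.5 and 0.841 to 0.931 CPM in Control libraries. Of these 1 was tested, Grhl2, and it was called higher, beside 19.2% of all tested genes. Grhl2 had 0.791 CPM in PM2.5 and 0.169 CPM in Control cells. It passed the filter on low counts through its PM2.5 libraries, so this call is no more than a description. Of 17 fibroblast and mesenchyme markers 15 reached 1 CPM. All 17 summed to 7416 to 8081 CPM in PM2.5 against 9942 to 10658 CPM in Control libraries. Of 15 tested, 3 were called higher and 8 lower, beside 19.2% and 20.4% of all tested genes. The 8 mammary basal markers summed to 22.2 to 24 CPM in PM2.5 and 53.8 to 56.3 CPM in Control libraries, most of it Krt14, with Krt5 at 0. Of these 3 were tested and 1 was called lower, beside 20.4% of all tested genes. This was Krt14, at 19.7 CPM in PM2.5 and 52.0 CPM in Control cells. Trp63 and Acta2 were not called (log2 fold changes 0.07 and 0.44). Luminal markers overlapped between the groups, at 110 to 116 CPM in PM2.5 and 108 to 113 CPM in Control libraries, with Krt18, Foxa1, Csn2 and Wap at 0. Most of that sum was Gata3, which was not called (93.0 CPM in PM2.5 and 96.1 CPM in Control cells). Of the 12 luminal markers 2 were tested and 1 was called higher, beside 19.2% of all tested genes. This was Esr1, at 18.7 CPM in PM2.5 and 14.5 CPM in Control cells. Macrophage markers also overlapped, at 68.0 to 75.5 CPM in PM2.5 and 64.9 to 75.3 CPM in Control libraries, with Itgam and Tyrobp at 0. Most of that sum was Cd14. Of these 9 markers 3 were tested and 1 was called higher, beside 19.2% of all tested genes. This was Cd68, at 9.67 CPM in PM2.5 and 3.93 CPM in Control cells. Endothelial markers overlapped as well and summed to at most 1.37 CPM in any library, with Emcn and Cldn5 at 0. The 6 adipocyte markers gave 4.58 to 6.25 CPM in PM2.5 and 1.89 to 2.33 CPM in Control libraries, with Adipoq and Cidec at 0. Of these 2 were tested, 1 called higher and 1 lower, beside 19.2% and 20.4% of all tested genes. Fabp4 was higher (4.84 CPM in PM2.5 and 0.443 CPM in Control cells). Pparg was lower (0.301 CPM in PM2.5 and 1.5 CPM in Control cells). Fabp4 passed the filter on low counts through its PM2.5 libraries and Pparg through its Control libraries, so both calls are no more than a description. The part of these marker differences in the results that follow was not tested.

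Cells treated with PM2.5 had more binding protein RNA and less Igf1r RNA. Igfbp4, Igfbp6 and Igfbp7 rose 1.82-fold, 1.77-fold and 1.42-fold, and the scarce ligand Igf1 rose 2.69-fold, while Igf1r fell by 0.26 on the log2 scale. Of the 10 members 6 passed the filter on low counts and were tested, and 5 of these were called at an adjusted p below 0.05 (edgeR's quasi-likelihood test, Benjamini-Hochberg over 12478 genes). By the same test 39.6% of all tested genes were called; 48.6% of those calls were higher, or 62.1% when libraries were scaled to size only. The calls of Igf1 and Igf1r were lost without PM2.5 replicate 1 (adjusted p = 0.21 and 0.102), and that of Igf1 also without Control replicate 1 (adjusted p = 0.0801). Higher in PM2.5 were 4 members, against 19.2% of all tested genes, and lower was 1, against 20.4%. The median log2 fold change of the 6 tested members was 0.67 and that of all tested genes 0.0063, but Igf1 passed the filter through its PM2.5 libraries, so the counts and the median describe the tested members only. In all 6 the PM2.5 and Control libraries did not overlap in CPM, which also held for 71% of all tested genes. PM2.5 lay above Control in 5 of the members (35.9% of all tested genes) and below in 1 (35.1%). In bulk RNA, fewer cells of a type and less RNA per cell cannot be told apart.

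Promoter sequences are printed for the 3 called binding protein genes and for Igf1r, the receptor that moved the other way, so that members with opposite changes can be compared. Each is the 250 bases before the gene's RefSeq start on GRCm38.p6, 5′ to 3′ on the gene's strand. Capitals mark GCGTG or its reverse complement CACGC, the core bound by the aryl hydrocarbon receptor, which senses polycyclic aromatic compounds, and TATAAA or its reverse complement TTTATA.
Igfbp4: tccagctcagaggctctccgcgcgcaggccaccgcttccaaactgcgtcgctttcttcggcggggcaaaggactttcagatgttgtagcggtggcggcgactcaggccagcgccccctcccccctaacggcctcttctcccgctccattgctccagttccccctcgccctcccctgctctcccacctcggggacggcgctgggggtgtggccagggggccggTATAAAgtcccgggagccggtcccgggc
Igfbp6: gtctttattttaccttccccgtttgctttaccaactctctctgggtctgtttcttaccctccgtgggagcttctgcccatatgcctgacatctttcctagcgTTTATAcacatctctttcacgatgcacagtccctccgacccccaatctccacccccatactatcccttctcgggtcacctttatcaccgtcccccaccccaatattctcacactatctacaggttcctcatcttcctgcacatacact
Igfbp7: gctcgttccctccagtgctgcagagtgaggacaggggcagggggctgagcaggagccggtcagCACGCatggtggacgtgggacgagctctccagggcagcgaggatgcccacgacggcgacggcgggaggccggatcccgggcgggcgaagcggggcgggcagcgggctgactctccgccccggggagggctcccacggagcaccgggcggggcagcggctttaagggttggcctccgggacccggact
Igf1r: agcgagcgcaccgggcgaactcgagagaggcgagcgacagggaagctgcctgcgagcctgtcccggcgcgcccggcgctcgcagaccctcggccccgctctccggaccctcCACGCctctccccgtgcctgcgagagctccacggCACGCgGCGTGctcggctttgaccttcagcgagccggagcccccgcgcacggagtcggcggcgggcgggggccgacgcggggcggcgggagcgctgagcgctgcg
These windows lie at chr11:99040994-99041243 (plus strand), chr15:102143936-102144185 (plus), chr5:77408046-77408295 (minus) and chr7:67952007-67952256 (plus), in the order printed.

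The Igfbp4 window held TATAAA beginning 28 bases before the start and no GCGTG. Igfbp6 held TTTATA at 148 bases and no GCGTG, Igfbp7 held CACGC at 187 bases, and Igf1r held 3 matches, at 139, 105 and 99 bases. No match overlapped another. The share of G and C bases was 69.2% for Igfbp4, 49.6% for Igfbp6, 74% for Igfbp7 and 77.6% for Igf1r. Its part in the number of matches was not tested, and the shares of all windows that follow are not matched for it. On either strand, GCGTG occurred in 28.2% and TATAAA in 12.4% of 32851 RefSeq windows of the same length, so either motif is common, and a match is not a binding site. Over all 14 windows of the 10 members, 6 members had GCGTG in at least 1 window. Some members had more than 1 window, so counts of members cannot be compared directly with shares of windows. For 2 further motifs searched on both strands, GTAAACA (the FOXO core) was in the windows of 0 members and in 3.17% of all windows, and TGANTCA (the AP-1 core) in those of 2 members and in 6.75% of all windows. The RefSeq start coincided with the GENCODE gene start for Igfbp4 and lay 4, 176 and 570 bases before it for Igfbp7, Igfbp6 and Igf1r, so the last 2 windows sit farther upstream in that annotation.

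**Figure D1:**
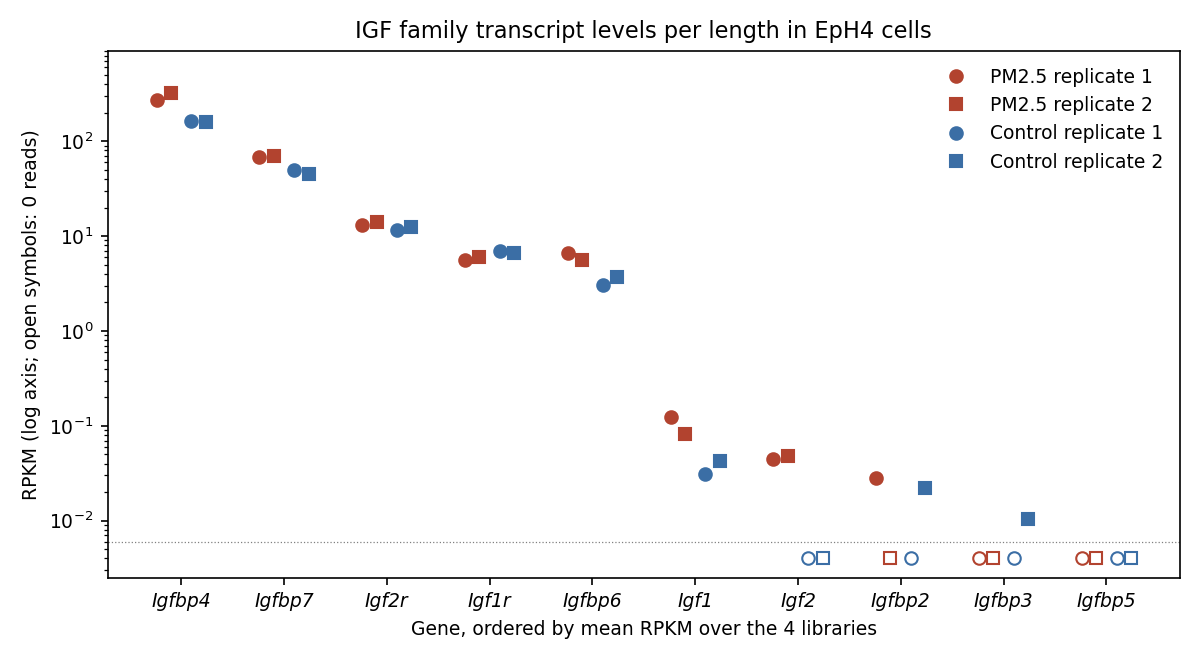
Transcript level per length (RPKM, log axis) of the 10 IGF family genes in each library, with circles for replicate 1, squares for replicate 2 and open symbols at the bottom for 0 reads. Igfbp4 lies highest in every library, from 158 to 323 RPKM, and Igf2, Igfbp2, Igfbp3 and Igfbp5 hold the lowest places.

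Levels are compared between genes in RPKM, which corrects reads for gene length and depth. Averaged over the 4 libraries, the order was Igfbp4 (230 RPKM), Igfbp7 (58.2), Igf2r (12.8), Igf1r (6.34), Igfbp6 (4.77), Igf1 (0.0695), Igf2 (0.0233), Igfbp2 (0.0125), Igfbp3 (0.00258) and Igfbp5 (0). The first 3 places were kept in both groups with no overlap between neighbours. Igf1r and Igfbp6 changed places: in PM2.5 libraries Igfbp6 (6.69 and 5.62 RPKM) overlapped Igf1r (5.59 and 6.06 RPKM), whereas in Control libraries Igf1r (6.99 and 6.71 RPKM) stood clear above Igfbp6 (3.02 and 3.75 RPKM). From Igf2 down the order in Control libraries rests on 0 or 1 count per library.

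Of the ligands, Igf1 was barely detected. It had 30 and 18 counts in the PM2.5 libraries against 7 and 13 in the Control libraries, that is 1.45 and 0.949 CPM against 0.368 and 0.504 CPM. Both PM2.5 libraries lay above both Control libraries, and the log2 fold change was 1.43 ± 0.424 (SE; edgeR, adjusted p = 0.0212). The call rests on few reads: leaving out PM2.5 replicate 1 gave 1.08 (adjusted p = 0.21), leaving out Control replicate 1 gave 1.25 (adjusted p = 0.0801), and the DESeq2 test gave 1.44 (adjusted p = 0.163). Igf1 (ENSMUSG00000020053) lies on chromosome 10, from 87694127 to 87772904 on GRCm39.

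Igf2, the fetal ligand expressed from the paternal copy, had 6 counts in each PM2.5 library and 0 in each Control library. With the 12 counts over the PM2.5 libraries set against a floor of 3 counts over the Control group, the scaled ratio was 4.52. The counting error of the 12 counts is not in that ratio, so it is not a lower bound. Igf2 did not pass the filter. Tested with no filter, it had an adjusted p of 0.0347 (edgeR). Its reads came from the PM2.5 libraries alone, so the ratio and the adjusted p are no more than a description. The floor of a single library was 0.116 to 0.158 CPM, and a floor of this kind covers counting error only. Igf2 (ENSMUSG00000048583) lies on chromosome 7, from 142204503 to 142220553, where the predicted gene Gm49394 overlaps it on the same strand with 0 counts. The insulin genes Ins1 and Ins2 were at 0 counts in all libraries, and of 5 relaxin and insulin-like ligands none passed the filter.

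Igf1r, the signalling receptor, was the only member called lower. It had 75.6 and 81.6 CPM in PM2.5 libraries against 96.0 and 92.0 CPM in Control libraries, with 1549 to 2371 counts in each. The groups did not overlap. The log2 fold change was -0.26 ± 0.0643 (edgeR, adjusted p = 0.00962), close to the median size of 0.21 over all tested genes. Without PM2.5 replicate 1 it was -0.21 (adjusted p = 0.102). The deposited total gene reads of Igf1r exceeded the counts more in PM2.5 than in Control libraries. Of those reads, 20.4% and 19.8% lay outside the counts in PM2.5 and 16.1% and 16.8% in Control libraries. With total gene reads in place of the counts, Igf1r was also called lower (edgeR). Its 100 tested neighbours on the chromosome had a median log2 fold change of 0.08, opposite in sign to Igf1r itself. The gene (ENSMUSG00000005533) spans 67602575 to 67883416 of chromosome 7.

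Igf2r, the scavenging receptor for IGF2, was not called. Its level was 139.7 and 147 CPM in PM2.5 libraries against 124 and 133 CPM in Control libraries, and the groups did not overlap. The log2 fold change was 0.16 ± 0.0605 (edgeR, adjusted p = 0.0638). Several other settings called it higher, among them leaving out Control replicate 2 (0.20, adjusted p = 0.0312) and a scaling by library size alone (0.22, adjusted p = 0.0167). Its 82 tested neighbours had a median of -0.10, and taking that off gave 0.26 (adjusted p = 0.0085). Igf2r (ENSMUSG00000023830) spans 12901293 to 12988551 of chromosome 17.

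Per length there were 2.37 and 2.31 Igf2r transcripts for each Igf1r transcript in PM2.5 libraries, against 1.66 and 1.86 in Control libraries. The ratio of the scavenging to the signalling receptor was thus higher in both PM2.5 libraries. With 2 libraries a group an exact two-sided permutation test cannot give a p below 0.333, so this ratio and the ratios and sums that follow are given with their spread and no test.

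**Figure D2:**
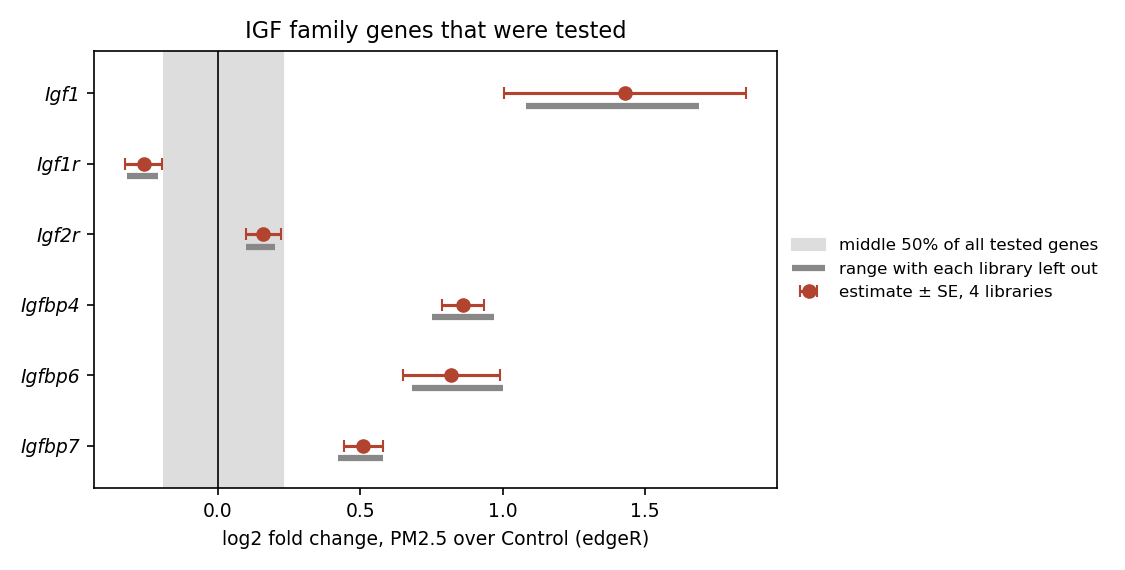
Log2 fold change of PM2.5 over Control for the 6 members tested, as the edgeR estimate ± SE from 4 libraries (red), with the range when each library in turn is left out (dark bar). Igf1, Igfbp4, Igfbp6 and Igfbp7 lie to the right of the shaded middle 50% of all tested genes (-0.19 to 0.23), and Igf1r lies to its left.

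Igfbp4 carried most of the family's RNA. It binds both ligands and blocks their action until the protease PAPP-A cuts it. Igfbp4 had 1283 and 1496 CPM in PM2.5 libraries against 779 and 747 CPM in Control libraries, or 276 and 323 RPKM against 165 and 158 RPKM. Each PM2.5 library was far above each Control library, although the PM2.5 pair also differed more from each other (1389 ± 151 CPM, SD, n = 2) than the Control pair (763 ± 22.8 CPM, SD, n = 2).

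The log2 fold change of Igfbp4 was 0.86 ± 0.0749 (edgeR, adjusted p = 1.66e-05). Only 68 of the tested genes, 0.545%, had a mean CPM as high or higher, and 790 of them, 6.33%, had a log2 fold change as large or larger. Igfbp4 thus stood nearer the top by level than by change. It made up 0.131% and 0.153% of all counts in PM2.5 libraries against 0.0758% and 0.0735% in Control libraries. Its 100 tested neighbours had a median log2 fold change of -0.17, so the gene differed from its surroundings by more than from 0. Igfbp4 (ENSMUSG00000017493) spans 98932070 to 98945218 of chromosome 11, on the plus strand.

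Igfbp7 binds IGFs only weakly and is also known as a matrix protein of vessels and of senescent cells. It had 96.8 and 100.1 CPM in PM2.5 libraries against 73.0 and 65.5 CPM in Control libraries, with a log2 fold change of 0.51 ± 0.0684 (edgeR, adjusted p = 2.51e-04). The groups did not overlap, and the PM2.5 pair agreed closely. Polr2b overlaps Igfbp7 on the opposite strand, with 7661 counts over the PM2.5 and 9150 over the Control libraries. The kit keeps strand, but whether counting used it is not given in the sources used here, so reads of these 2 genes may not be fully separated. Igfbp7 (ENSMUSG00000036256) spans 77497087 to 77555888 of chromosome 5.

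Igfbp6, which prefers IGF2 over IGF1, was far less abundant. It had 182 and 140 counts in PM2.5 libraries against 77 and 129 in Control libraries, or 8.82 and 7.38 CPM against 4.05 and 5.0 CPM. The groups did not overlap, and the log2 fold change was 0.82 ± 0.171 (edgeR, adjusted p = 0.00357). Its relative change was thus close to that of Igfbp4, at a mean of 6.15 RPKM in PM2.5 cells beside 299 RPKM for Igfbp4. Igfbp6 (ENSMUSG00000023046) spans 102052797 to 102057946 of chromosome 15.

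The remaining 3 binding proteins were at or near 0. Igfbp5, which is known to rise in the involuting mammary gland, had 0 counts in all 4 libraries. Igfbp3, the main carrier of IGF in blood, had 0 counts in both PM2.5 libraries and 0 and 1 in the Control libraries. Igfbp2 had 1 and 0 counts in the PM2.5 libraries and 0 and 1 in the Control libraries. These levels are under the floor of 3 counts, so no difference was detectable at this depth. These genes lie beside each other: Igfbp2 and Igfbp5 lie 5457 bases apart on chromosome 1, and Igfbp3 lies 3539 bases from Igfbp1, which was also at 0 in all 4 libraries, on chromosome 11. No gene of the table lies between the members of either pair.

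Summed over Igfbp2 to Igfbp7, binding protein RNA was 349.9 and 398.4 RPKM in PM2.5 libraries against 218.2 and 207.4 RPKM in Control libraries (374 ± 34.3 and 213 ± 7.65, SD, n = 2 each). The makeup shifted little beside the sum. Igfbp4 gave 78.8% and 81.0% of it in PM2.5 and 75.6% and 76.4% in Control libraries, Igfbp7 gave 19.3% and 17.6% in PM2.5 and 23.0% and 21.8% in Control libraries, and Igfbp6 less than 2% in each. Set against the signalling receptor, there were 62.6 and 65.8 binding protein transcripts per length for each Igf1r transcript in PM2.5 libraries against 31.2 and 30.9 in Control libraries. That ratio of the means was 2.07 times as high in PM2.5 cells, with little spread in either pair.

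**Figure D3:**
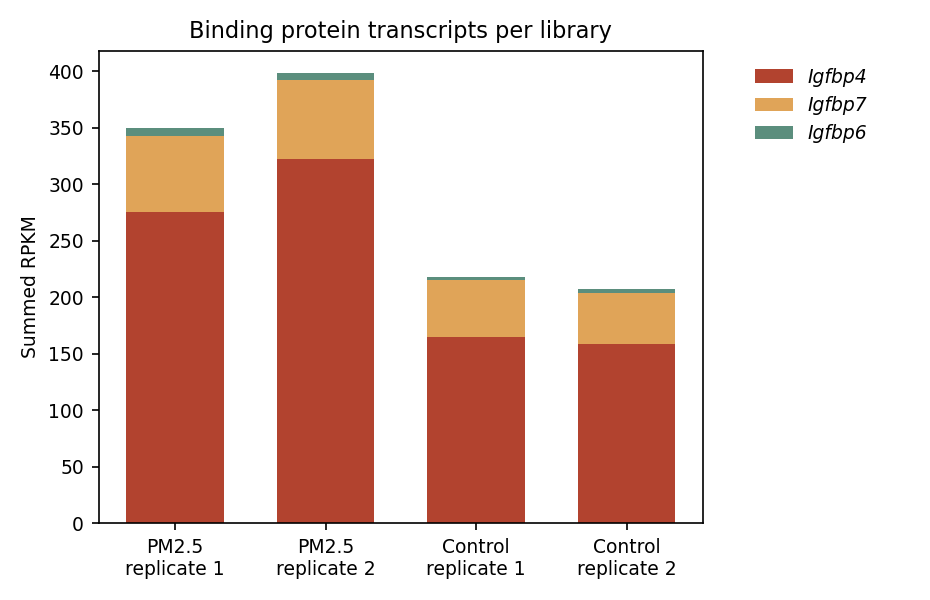
Summed RPKM of the binding protein genes in each library, stacked by gene (Igfbp4 red, Igfbp7 orange, Igfbp6 green); Igfbp2, Igfbp3 and Igfbp5 are too low to show. The PM2.5 stacks reach 349.9 and 398.4 RPKM and the Control stacks 218.2 and 207.4 RPKM, with Igfbp4 the main part of each.

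Many of the listed genes whose products act on the binding proteins were called. The list was chosen with earlier results of these data known, so its counts describe these genes only. Of 17 tested proteases and protease inhibitors, from a list of 21, 10 were higher and 3 lower in PM2.5 cells, beside 19.2% and 20.4% of all tested genes, with a median log2 fold change of 0.49 against 0.0063 over all tested genes. Stc1 encodes stanniocalcin 1, a secreted glycoprotein that inhibits the pappalysins PAPP-A and PAPP-A2. It had 44.4 and 53.3 CPM in PM2.5 libraries against 2.73 and 2.79 CPM in Control libraries, a log2 fold change of 4.14 ± 0.138 (edgeR, adjusted p = 3.74e-08). Both PM2.5 libraries lay far above both Control libraries, which were close to each other.

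Its paralog Stc2 had 28.0 and 24.1 CPM in PM2.5 libraries against 36.2 and 34.6 CPM in Control libraries, with a log2 fold change of -0.44 (edgeR, adjusted p = 0.00356). That call ended once the median of neighbouring genes was taken off (-0.20, adjusted p = 0.12). The 2 stanniocalcins traded places: the ratio of Stc1 to Stc2 RPKM was 1.49 and 2.07 in PM2.5 libraries against 0.0710 and 0.0758 in Control libraries. Of the pappalysins, Pappa had 2 and 0 counts in PM2.5 libraries and 0 in both Control libraries, whereas Pappa2 was expressed, at 27.9 and 23.0 CPM in PM2.5 libraries against 13.7 and 12.8 CPM in Control libraries (log2 fold change 0.95, adjusted p = 1.32e-04, edgeR). PAPP-A2 is known to cut IGFBP3 and IGFBP5, whose genes were at or near 0 here.

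Other secreted proteases rose too. The gelatinase Mmp9 averaged 109 CPM in PM2.5 and 30.1 CPM in Control cells (log2 fold change 1.85). The plasminogen activators Plau and Plat had log2 fold changes of 1.84 and 1.10, at 13.0 and 11.2 CPM in PM2.5 against 3.69 and 5.22 CPM in Control cells. The complement proteases C1s1 and C1ra had 1.52 and 0.85, and Htra1, a serine protease known to cut IGFBP5, had 0.49, at 231 CPM in PM2.5 and 164 CPM in Control cells. The metalloprotease Adamts1 went the other way, at 53.6 CPM in PM2.5 and 172 CPM in Control cells (log2 fold change -1.68). All of these had adjusted p-values of at most 3.46e-04 in edgeR. Pappa2, Htra1, Plau, Plat, C1s1 and C1ra were picked for mention after their values were seen.

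**Figure D4:**
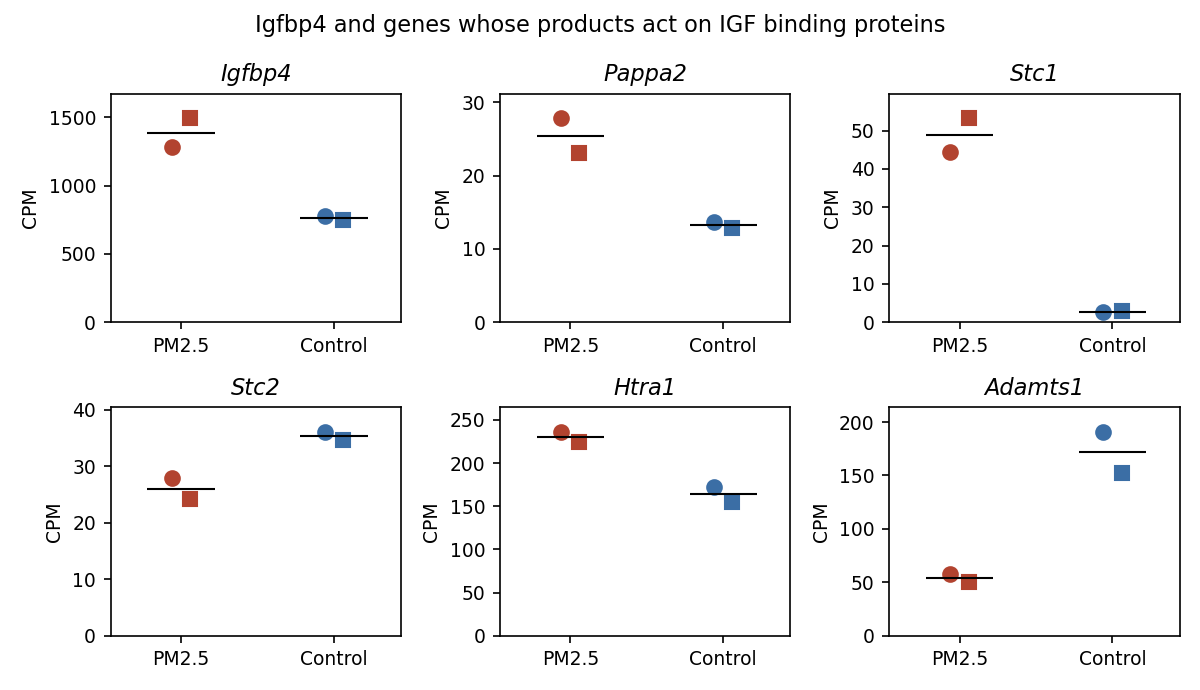
CPM of Igfbp4 and 5 genes whose products cut binding proteins or inhibit those that do, with circles for replicate 1, squares for replicate 2 and lines for group means; each axis starts at 0. Stc1 (48.8 CPM in PM2.5, 2.76 CPM in Control) separates the groups most, and Stc2 and Adamts1 are lower in PM2.5.

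Proteins with domains related to the binding proteins were higher for 3 and lower for 1 of 6 tested genes, beside 19.2% and 20.4% of all tested genes, with a median log2 fold change of 0.45. Ccn3 passed the filter through its PM2.5 libraries, so the count and the median describe the tested genes only. Ccn5, a matricellular protein, fell to 29.1 and 26.1 CPM in PM2.5 libraries, against 55.0 and 56.9 CPM in Control libraries (log2 fold change -1.02, adjusted p = 8.76e-06, edgeR). Kazald1 rose (0.78, adjusted p = 0.00461, edgeR). Ccn2 (1.05, adjusted p = 0.0185, edgeR) and Ccn3 (1.74, adjusted p = 0.0222, edgeR), also matricellular, were called on 41 to 114 and 3 to 17 counts per library. The Ccn2 call was lost without PM2.5 replicate 1 (0.74, adjusted p = 0.124) and also without Control replicate 2 (0.56, adjusted p = 0.129). The Ccn3 call was lost without any 1 of the libraries: 1.59 (adjusted p = 0.151) and 1.86 (0.0766) without PM2.5 replicates 1 and 2, and 1.46 (0.101) and 2.21 (0.0523) without Control replicates 1 and 2. Ccn1 had 54.1 and 46.6 CPM in PM2.5 against 77.4 and 39.1 CPM in Control libraries, and its direction depended on which Control library was kept: without Control replicate 1 the log2 fold change was 0.36 (adjusted p = 0.0097), and without Control replicate 2 it was -0.62 (adjusted p = 3.82e-05). Igfals, whose product completes the IGF complex of blood, had 7 and 2 counts in PM2.5 and 0 in both Control libraries.

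Downstream of the receptors, genes moved both ways. Of 18 tested receptors and adaptors 2 were higher and 7 lower, beside 19.2% and 20.4% of all tested genes, with a median log2 fold change of -0.10. The insulin receptor Insr had 45.1 CPM in both PM2.5 libraries against 46.7 and 48.0 CPM in Control libraries (-0.07, adjusted p = 0.438, edgeR), and the adaptor Irs2 was not called either (0.11, adjusted p = 0.327, edgeR). Rack1, a scaffold that binds Igf1r, was at 1135 CPM in PM2.5 and 1583 CPM in Control cells (-0.48, adjusted p = 1.14e-04, edgeR). Ybx1 (-0.35) and the adaptor Crkl (-0.35) were also lower; the Crkl call ended once the median of neighbouring genes was taken off (-0.05, adjusted p = 0.561). Higher were the phosphatase Ptpn1 (0.29, adjusted p = 0.0122, edgeR) and the adaptor Shc1 (0.16, adjusted p = 0.0429, edgeR). With the median of neighbouring genes taken off, both calls ended (Ptpn1 0.14, adjusted p = 0.184, and Shc1 0.11, adjusted p = 0.152, edgeR). The Ptpn1 call was lost without PM2.5 replicate 2 (0.20, adjusted p = 0.13) and also without Control replicate 2 (0.20, adjusted p = 0.0532). That of Shc1 was lost without Control replicate 1 (0.14, adjusted p = 0.112), Control replicate 2 (0.16, 0.0586), PM2.5 replicate 1 (0.17, 0.14) or PM2.5 replicate 2 (0.13, 0.271).

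Of 32 genes of PI3K, AKT and mTOR signalling, all tested, 4 were higher and 8 lower, with a median log2 fold change of -0.08. That share of calls is close to the 39.6% of all tested genes and is no result about the list. The smallest p-value was that of a gene that rose. Pik3r1, the regulatory subunit of PI3K, had 289 and 269.7 CPM in PM2.5 libraries against 144 and 146 CPM in Control libraries (0.95, adjusted p = 1.74e-06, edgeR). Rps6kb2 (0.37) and Mtor (0.21) were also called higher, but Rps6kb2 lost its call without PM2.5 replicate 2 (0.29, adjusted p = 0.0521), and Mtor without Control replicate 2 (0.14, adjusted p = 0.166), PM2.5 replicate 1 (0.25, 0.0583) or PM2.5 replicate 2 (0.15, 0.257). Rps6kb2 also lost its call once the median of neighbouring genes was taken off (0.21, adjusted p = 0.0619, edgeR). The translation repressor Eif4ebp1 was lower, at 43.3 CPM in PM2.5 and 60.9 CPM in Control cells (-0.49, adjusted p = 9.48e-04, edgeR). Akt1 was at 345 CPM in PM2.5 and 409 CPM in Control cells (-0.25, adjusted p = 0.0116, edgeR), a call lost without PM2.5 replicate 2 (-0.22, adjusted p = 0.0933). Akt1, Insr and Irs2 were picked for mention after their values were seen.

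The FOXO factors are transcription factors that AKT keeps out of the nucleus. Of 14 tested FOXO factors and targets 6 were higher and 1 lower, with a median log2 fold change of 0.12, beside 19.2% and 20.4% of all tested genes. Foxo6 passed the filter on low counts through its PM2.5 libraries, so its place among the 6 is no more than a description. Foxo1 averaged 86.6 CPM in PM2.5 and 50.6 CPM in Control cells (0.78, adjusted p = 1.27e-05, edgeR). The known targets Txnip, which restrains glucose uptake, and Sesn3, a sestrin that restrains mTOR, rose to 110.2 and 106 CPM in PM2.5, against 50.7 and 53.6 CPM in Control cells (1.11 and 0.98). Pdk4 (1.05), Foxo3 (0.27) and Foxo6 (24 counts over PM2.5 and 3 over Control libraries) were the others higher, picked for mention after their values were seen. DESeq2 did not call Foxo6 (3.26, adjusted p = 0.072), and its edgeR estimate of 3.07 became 6.58 without Control replicate 2. Foxo4 was the 1 lower (-0.33, adjusted p = 0.0308, edgeR), a call lost without Control replicate 2 (-0.26, adjusted p = 0.134), PM2.5 replicate 1 (-0.37, 0.0731) or PM2.5 replicate 2 (-0.29, 0.152). The remaining 7, all of them targets, were not called.

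Growth hormone and prolactin act upstream of Igf1 through JAK2 and STAT5. Of 8 tested genes 4 were higher and 1 lower, beside 19.2% and 20.4% of all tested genes, with a median log2 fold change of 0.18. Jak2 had 147 and 141 CPM in PM2.5 libraries against 56.1 and 54.6 CPM in Control libraries (1.38, adjusted p = 1.52e-07, edgeR), and the growth hormone receptor Ghr averaged 26.5 CPM in PM2.5 and 19.8 CPM in Control cells (0.42, adjusted p = 0.00497, edgeR). The prolactin receptor Prlr had 1 and 0 counts in PM2.5 and 0 in both Control libraries. The feedback inhibitors Socs2 (0.35, adjusted p = 0.0201) and Socs3 (0.30, adjusted p = 0.0206) were called higher and Stat5b lower (-0.24, adjusted p = 0.0143) by edgeR. The Stat5b call ended once the median of neighbouring genes was taken off (-0.08, adjusted p = 0.376, edgeR). None of these 3 calls held throughout: Socs2 lost it without Control replicate 1 (0.32, adjusted p = 0.0591), PM2.5 replicate 1 (0.33, 0.109) or PM2.5 replicate 2 (0.37, 0.0675), Socs3 without Control replicate 1 (0.19, 0.104) or PM2.5 replicate 2 (0.25, 0.121), and Stat5b without PM2.5 replicate 1 (-0.23, 0.0795) or PM2.5 replicate 2 (-0.24, 0.0695).

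Of the proteins that bind Igf2 RNA, and its imprinted neighbours, 2 of 10 listed genes were tested and 3 had no row in the table. Igf2bp2 was lower, at 13.8 and 12.8 CPM in PM2.5 libraries against 18.9 and 34.4 CPM in Control libraries (-1.03, adjusted p = 0.00448, edgeR). Its Control pair was far apart: the log2 fold change was -0.51 without Control replicate 2 and -1.38 without Control replicate 1, and DESeq2 did not call it (-1.02, adjusted p = 0.0642). Igf2bp1 had 23.1 and 23.0 CPM in PM2.5 libraries against 26.5 and 20.7 CPM in Control libraries and was not called. Over all lists, 97 of 126 genes were tested, with 29 higher, 22 lower and a median log2 fold change of 0.01, beside 19.2% and 20.4% of all tested genes and a median of 0.0063.

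**Figure D5:**
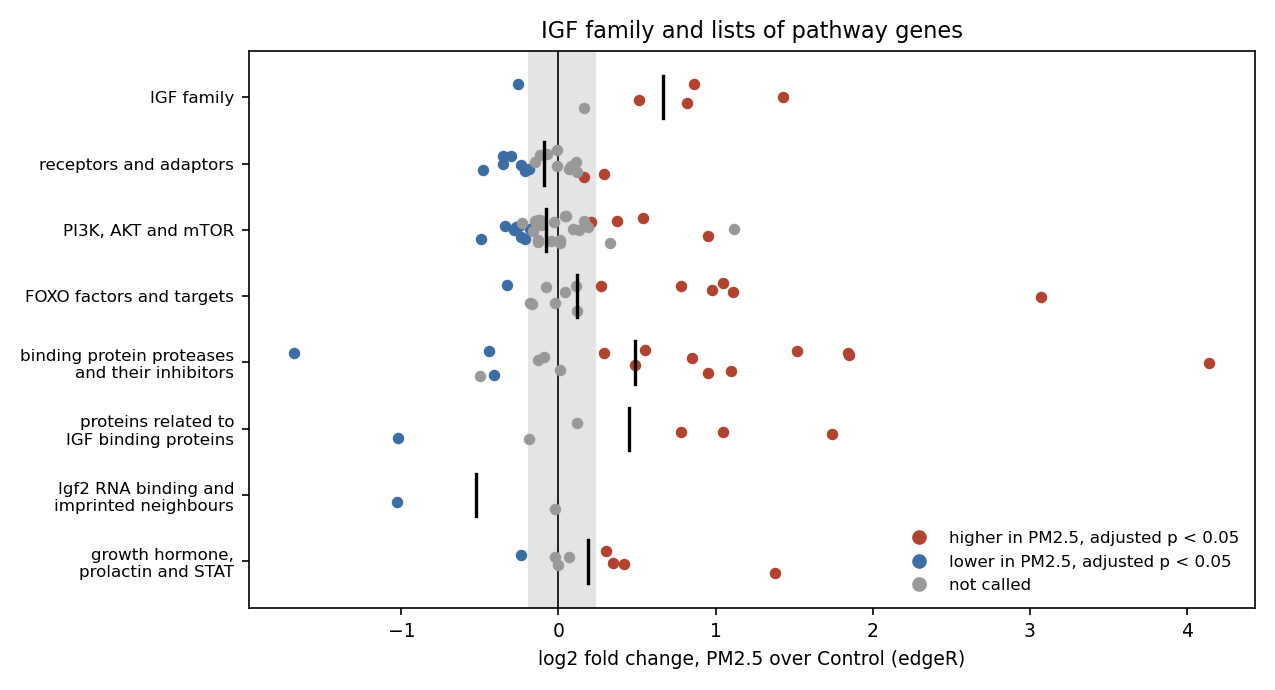
Log2 fold change of PM2.5 over Control (edgeR) for each tested gene of the IGF family and of 7 pathway lists; red points were called higher, blue points lower and grey points not called, black ticks are medians, and the grey band holds the middle 50% of all tested genes. The medians lie at 0.67 for the IGF family, 0.49 for the proteases and inhibitors and -0.08 for PI3K, AKT and mTOR.

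Genes with the most similar profile were sought for each called member of at least 1 CPM, as the smallest root mean square difference in log2 CPM, each gene centred on its mean over the 4 libraries. Among 11086 candidates, Igfbp4 was nearest to Tmem132a (0.025), Ptch1 (0.025), the Hedgehog receptor, and Padi1 (0.039), and 91 genes lay within 0.1 of it. Igfbp6 was nearest to Naaladl2 (0.028), Zfp839 (0.054) and Usp35 (0.058), with 27 genes within 0.1. For Igfbp7 these were Zfp974 (0.0064), Neo1 (0.022) and Rnpep (0.026), with 388 within 0.1, and for Igf1r they were Icmt (0.0089), Cul1 (0.0096) and Cry2 (0.010), with 2542 within 0.1. The number within 0.1 depends on the size of the change, since a small one such as that of Igf1r lies near those of many genes. Each profile has 4 points, from the same 4 libraries for every gene.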

How the data were processed

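RNA was measured in 4 libraries, made from 750 ng of total RNA each with a stranded polyA kit per the labels' protocols. Raw counts per gene, and total gene reads, a further count never below the raw count and not defined in the headers, were deposited by the authors without normalization. RPKM values, made from those counts, were deposited by the authors too, per the file headers. Positions are on GRCm39, per the submitters' processing notes. Not given in the sources used here: aligner, counting program, annotation release and strand setting.

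Genes were filtered with filterByExpr, scaled by TMM and tested with edgeR 4.0.16 (quasi-likelihood, PM2.5 over Control, no covariates, R 4.3.3), with Benjamini-Hochberg adjustment over all 12478 tested genes at 0.05. The SE is the absolute log2 fold change divided by the square root of F. The fit was tested on simulated data. Alternatives used DESeq2 1.42.0, limma 3.58.1, other scalings, filters and units, a replicate block, each library left out, and an offset of the median log2 fold change of the 50 tested genes on either side (local offset).

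Within each list the 3 called genes with the smallest p-values were named, with all of a count of 5 or fewer in a direction; other names are stated as chosen afterwards, and a few genes that the rule names are not reported here. The members and lists were chosen with earlier results of these data known. Promoter windows are from RefSeq (GRCm38.p6), which had windows for all 10 members; their coordinates are not those of GRCm39. Total counts were 20232277 and 18548478 in PM2.5 and 19562930 and 26206329 in Control libraries. Replicates differed beyond sampling noise (chi-square per gene 3.76 in PM2.5 and 7.2 in Control).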

Additional observations from a re-analysis of the deposited data

How the results depend on the processing

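Igfbp4 (0.75 to 1.03), Igfbp6 (0.67 to 1.0) and Igfbp7 (0.42 to 0.58) kept their direction and their call under all 16 alternatives. Igf1 was lost with DESeq2 (1.44, adjusted p = 0.163) and with limma-trend on RPKM, with 0.1 or 1 added before log2 (0.56 and 0.09), could not be tested under the stricter filter, and ranged from 1.08 to 1.69 with each library left out. Igf1r was lost on the same RPKM scales (-0.23 and -0.20) and ranged from -0.32 to -0.21 with each library left out. Igf2r was called with upper quartile scaling (0.20), library size only (0.22) and the local offset (0.26), and ranged from 0.10 to 0.20 with each library left out. With each library left out the members called higher numbered 3 to 5 and those called lower 0 to 1; limma-trend on both RPKM scales called 0 lower. Over all genes, DESeq2 called 1389 higher; with each library left out 1492 to 2266 were higher and 1619 to 2575 lower. Pathway genes called lower were 14 with the local offset and 13 to 25 with each library left out, and those called higher 20 to 27. Without Control replicate 1, Ccn1 reversed to 0.36, and without Control replicate 2 it was -0.62. Of called genes 48.6% were higher with TMM and 62.1% with library size only, which moved the median log2 fold change of all genes to 0.069. Where no value shows it, the cause of these changes was not tested.

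The titles number the replicates 1 and 2 in both groups, but nothing ties equal numbers to a shared culture, and with 2 pairs the correlation of their deviations (0.164) does not settle it. With the number as a replicate block, 5792 genes were called in place of 4939, and Igf2r was called (0.16, adjusted p = 0.0219). In this fit 5 members were higher and 1 lower.

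Depth limits Igf1, Igf2, Igfbp2, Igfbp3 and Igfbp5 most.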
